A study of Caenorhabditis elegans with 96 samples.

Results

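The pals genes of the nematode Caenorhabditis elegans were examined as a family. Members were all genes whose symbol begins with pals- in the annotation of the WBcel235 assembly. There were 38 of them among the 46904 gene identifiers in the count files, and 20 had at least 10 read counts in 4 or more libraries. The other 18 were below that level and are accounted for separately.

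The study sequenced total RNA from 96 libraries of advanced intercross lines and of the parental strains. N2, the laboratory reference strain, had 4 libraries, and CB4856, a wild isolate from Hawaii, had 7. Each of 85 lines, which are inbred mosaics of the 2 parental genomes, had 1 library, so no line had a replicate. All groups were control animals by the labels, grown on Escherichia coli HT115 and collected as L4 larvae, the final larval stage, 50 h after about 2000 starved L1 larvae had been plated. The labels give no sex, transgene or infection. Libraries fell into 7 batches named in the titles (2, 3, 4, 6, 7, 8 and 9). Every batch held 1 CB4856 library and 7 to 19 lines, while N2 was in batches 3, 6, 8 and 9. Nothing in the labels says that parental libraries came from separate cultures, so p-values measure the spread between these libraries. In whole animals, fewer cells of a type and less RNA per cell cannot be told apart.

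The family is named for a protein signature shared with the human ALS2CR12 gene, and it is greatly expanded in C. elegans. It is best known for the intracellular pathogen response, a set of genes switched on by microsporidia and by the Orsay virus, which infect the intestine. PALS-22 represses that response and PALS-25, encoded by the adjacent gene, promotes it, while pals-5 is a widely used reporter that is induced when the response is on. PALS-17 is also known as a repressor, and PALS-16 and PALS-20 act against it.

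Gene counts summed to between 22069702 and 24001627 per library, so 3 counts, the limit that a count of 0 allows, equalled 0.125 to 0.136 CPM (counts scaled to a fixed library total). Sperm genes summed to 131 to 376 CPM in N2, with the lowest value in batch 9, and 25.1 to 97.9 CPM in CB4856. Of 7 sperm genes, 6 were higher in N2, while 4 of 5 oocyte genes were lower. Yolk genes, a list for the adult intestine, summed to 29638 to 34798 CPM in N2 and 22789 to 63912 CPM in CB4856. Oocyte genes summed to 3802 to 5494 CPM in N2, with the highest value in batch 9, and 5299 to 6706 CPM in CB4856. The stage is taken from the labels and not from these lists, and whether the pellets held animals past L4 was not tested. Principal components were taken from the 2000 most variable genes outside the pals family and the lists of pathogen response and virus genes. Genes of the sperm, oocyte, yolk, moult and intestine lists were not left out. The first component held 22.96% of the variance. On it the N2 libraries of batches 3, 6 and 8 lay at 24.3, 56.6 and 55.7, that of batch 9 at -36.2, and CB4856 between -62.9 and -15.7. The line QX571, in batch 7, stood apart: it was the highest of 85 lines at 3023 of 16570 genes, or 18.2%, and lay at 79.6 on the component. Correlations between pals genes across lines, spreads among lines, and midpoint and batch calls are given with and without QX571. Correlations with genes outside the family include it throughout.

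The pals family was lowly expressed in these animals, which were L4 by the labels. The summed level of all 38 members was 24.7, 41.2 and 46.3 CPM (lowest, median and highest) in N2, and 17.999, 19.02 and 25.6 CPM in CB4856. In the lines it was 16.6, 28.1 and 80.6 CPM, with the highest value in QX571 and the next, 66.3 CPM, in QX503. Without pals-23, pals-24 and pals-37, whose counts were bimodal among lines, the sum was 17.1, 24.1 and 25.1 CPM in N2. In CB4856 it was 17.2, 18.4 and 25.1 CPM. The end points of the strains were then much the same, while the median stayed higher in N2, a difference that was not tested.

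Per length (RPKM, which is CPM per kilobase of exon), the highest mean levels in N2 belonged to pals-23 at 6.29 ± 2.33 (SD, n = 4), pals-24 at 6.14 ± 2.70 and pals-17 at 5.81 ± 1.07. These 3 did not differ beyond their spread. In CB4856 the highest were pals-17 at 3.20 ± 0.626 (SD, n = 7) and pals-16 at 3.01 ± 0.759, whose levels overlapped. The repressor gene pals-22 and the activator gene pals-25 were at 2.38 ± 0.366 and 2.43 ± 0.477 RPKM in N2, and at 1.77 ± 0.303 and 1.28 ± 0.182 RPKM in CB4856.

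**Figure D1:**
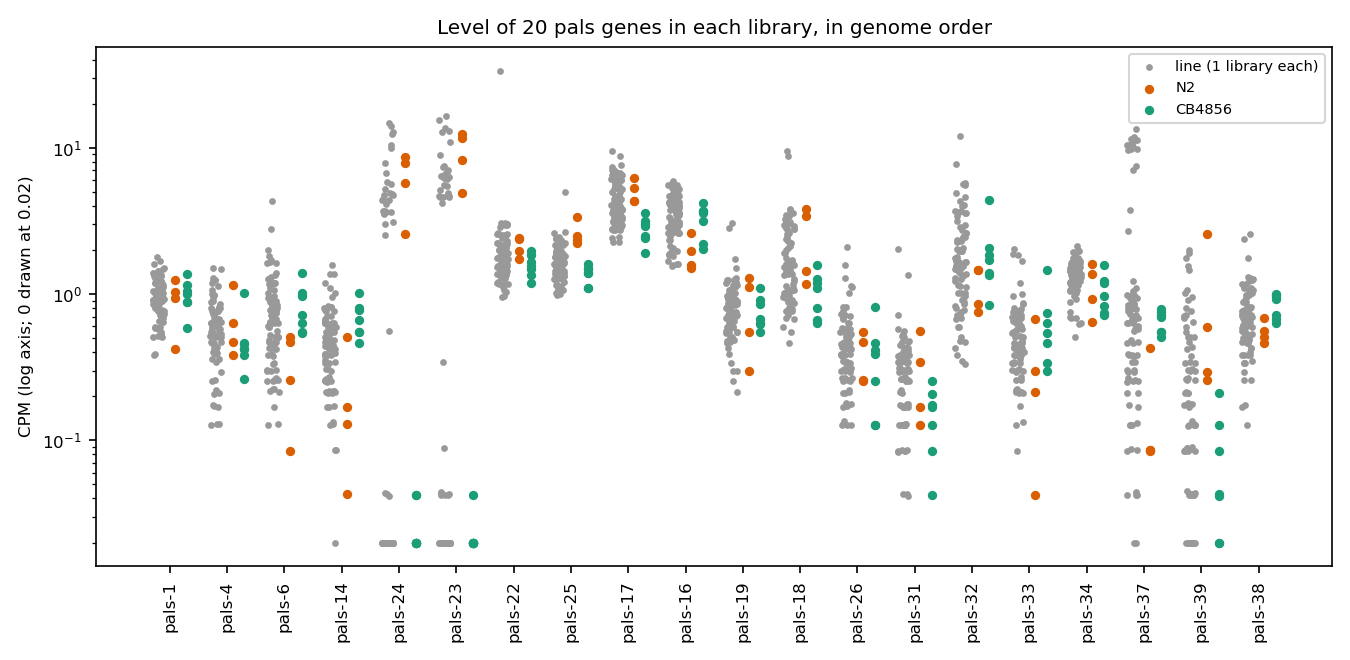
The level of each of 20 pals genes in every library, as CPM on a log axis, in genome order; grey points are 85 lines, orange points 4 N2 libraries and green points 7 CB4856 libraries, and a count of 0 is drawn at 0.02. Lines form separate groups at pals-24, pals-23 and pals-37, and QX571 is the lone point at 33.7 CPM for pals-22.

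The 18 members under the rule comprised most of the large cluster on chromosome I. In that cluster, which spans 13083321 to 13144623, only pals-4, pals-6 and pals-14 of 14 genes passed. Those that did not were pals-2, pals-3, pals-5, pals-7, pals-8, pals-9, pals-10, pals-11, pals-12, pals-13 and pals-15. The remaining members under the rule were pals-20, pals-21, pals-40, pals-27 and pals-28 on chromosome III, and pals-29 and pals-30 on chromosome IV. The reporter gene pals-5 (WBGene00007659) had counts of 0, 0, 0 and 4 in N2 and 0, 1, 1, 0, 0, 0 and 0 in CB4856. No library exceeded 5 counts of pals-5, so a difference was not detectable at this depth. The PALS-17 antagonist gene pals-20 reached 15 counts, and 50.8% of its exon bases overlapped Y82E9BR.5 on the opposite strand. Counts in unstranded libraries leave such bases out, as they do for the 99.5% of pals-12 exon bases shared with pals-3; pals-12 was at 0 everywhere.

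Between the parents, 18 members were tested and 10 were called, 5 higher and 5 lower in N2, at an adjusted p under 0.05 in edgeR's quasi-likelihood test. Over all 14858 genes tested, 33.9% were called, 17.9% higher and 16% lower in N2. The median log2 fold change was 0.03 over the members and 0.03 over all genes. Libraries of the 2 strains did not overlap at 6 of the 18 members, against 16.4% of all genes tested. With batch as a replicate block, 4 members were called, pals-23, pals-24, pals-17 and pals-14, against 2212 of all genes. With the first component as a covariate, 4 were called, pals-23, pals-24, pals-25 and pals-16, against 1559 of all genes. The part of the strains' difference in sperm and oocyte genes in the pals calls was not tested.

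The adjacent genes pals-24 and pals-23 at the left end of chromosome III set the strains apart most. They lie on the plus strand at 120435 to 124690 (WBGene00016219) and 124778 to 127971 (WBGene00016218). The pals-23 counts in N2 were 117, 291, 194 and 277 in batches 3, 6, 8 and 9, against 0 in 6 CB4856 libraries and 1 in batch 8. The pals-24 counts in N2 were 61, 203, 134 and 186, against 0 in 5 CB4856 libraries and 1 in batches 6 and 8. Every N2 library exceeded every CB4856 library at both genes.

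Total counts, scaled for depth, were 1543-fold higher in N2 for pals-23, from 879 counts against 1, with a 95% exact interval of 276 to 61017 that covers counting error only. The ratio for pals-24 was 513-fold, from 584 counts against 2, with an interval of 141 to 4243. The edgeR adjusted p was 5.03e-08 for pals-23 and 4.40e-07 for pals-24. Of 16570 genes, 59 (0.356%) had at most 1 count in every CB4856 library and at least 2 CPM in every N2 library. Per the submitters' processing notes the build was WBcel235, the genome of N2, so lower RNA and reads from a diverged or absent copy that did not align cannot be told apart.

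Among lines, pals-23 and pals-24 were either present or near 0, and always together. Both exceeded 3 counts in 30 of 85 lines (35.3%), neither did in 55, and none was discordant, with the limit of 3 counts chosen after the values were seen. Among the 55 the highest counts were 2 for pals-23 and 1 for pals-24. Among the 30, pals-23 levels were 0.344, 6.28 and 16.4 CPM (lowest, median and highest), and pals-24 levels were 0.558, 4.63 and 14.7 CPM.

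The lowest of the 30, QX504, had 8 and 13 counts of pals-23 and pals-24, whereas the next lowest values were 95 and 57. QX504 therefore stood between the groups. The lines with both genes were spread over all batches, with 1, 3, 4, 5, 5, 7 and 5 of them in batches 2, 3, 4, 6, 7, 8 and 9. In batch 4 all 4 of them had high pals-23 counts, 248, 292, 293 and 311. Within the 30 lines the 2 genes' levels moved together (Pearson r = 0.952 and Spearman rho = 0.889 on log2 CPM, each with a permutation p of 1e-05, the smallest that 100000 resamples give). Without the 2 lines farthest from the median r was 0.949, and within batch 8, the only batch with at least 6 of these lines, r was 0.939.

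**Figure D2:**
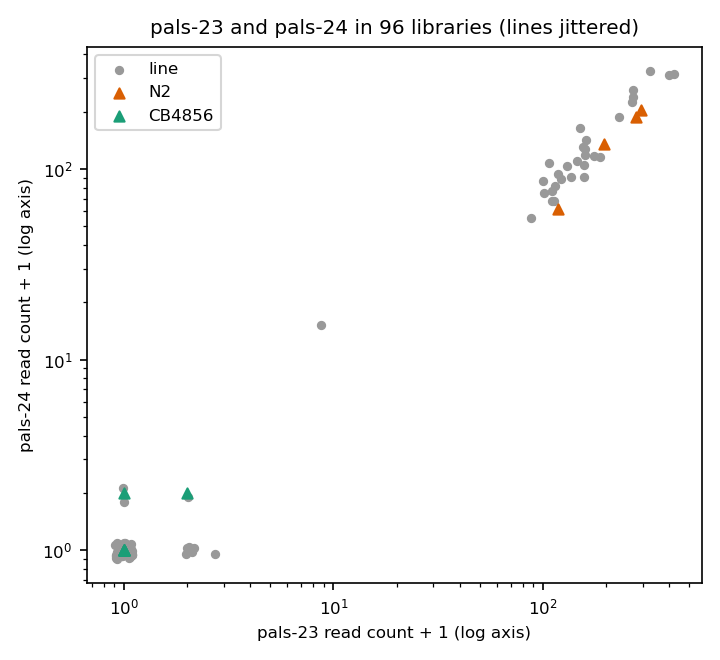
Read counts of pals-23 (x axis) and pals-24 (y axis), each plus 1 on a log axis, in 96 libraries; grey points are lines with slight jitter and triangles are parental libraries. All 4 N2 libraries fall among the 30 lines with both genes, all 7 CB4856 libraries among the 55 near 0, and QX504 lies between.

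The genes whose levels were most like pals-23 across lines, with batch means removed, were all at the same chromosome end. The F-box gene fbxa-6 (chromosome III, 1219 to 3097) had a rho of 0.92 with pals-23 and 0.92 with pals-24 over 85 lines. The pseudogene WBGene00016225, at 109322 to 110185, ran opposite, with a rho of -0.91 and -0.93. Its counts were 0 in every N2 library and 170 to 267 in CB4856. Some genes nearby were also low in CB4856. N2 libraries held 26 to 70 counts of fbxa-6 where CB4856 held 0. For C29F9.2, between pals-23 and pals-22, the range was 24 to 39 against 0 to 2. The gene sqst-5, beyond pals-25, had 63 to 115 against 6 to 14. Others in the same stretch overlapped between the strains, such as pck-1 (1927 to 3286 in N2, 2502 to 3673 in CB4856). So did C29F9.6, near pals-24 (4 to 10 and 4 to 15). Between pals-25 and sqst-5, fbxb-84 reached higher in CB4856 (1 to 6 and 3 to 43). The next member, pals-22, was not near 0 in CB4856.

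The repressor gene pals-22 (WBGene00016216, chromosome III, 132418 to 134401) had counts of 57, 46, 56 and 41 in N2 and 44, 47, 38, 35, 32, 37 and 28 in CB4856. The strains overlapped, and the log2 difference of N2 over CB4856 was 0.39 ± 0.18 (SE) with an edgeR adjusted p of 0.122. N2 was nonetheless higher in all 4 batches that held both strains. The activator gene pals-25 (WBGene00020540, chromosome III, 134494 to 137975) had counts of 59, 55, 52 and 79 in N2 and 33, 36, 37, 26, 35, 33 and 26 in CB4856.

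All N2 libraries exceeded all CB4856 libraries at pals-25, by 0.89 ± 0.18 on the log2 scale (edgeR adjusted p = 0.00386). With the replicate block the difference was 0.99 and its adjusted p 0.0537. Whether pals-22 and pals-25 differ between strains by unequal amounts was not tested. The SD among all 85 lines on the log2 scale was 0.605 for pals-22 and 0.372 for pals-25, against 0.240 and 0.225 within parental strains. Without QX571 the line SDs were 0.414 and 0.339.

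QX571 had 780 pals-22 counts (33.7 CPM), against 71 in the next highest line and a median of 38. It also had 116 pals-25 counts, against 63 in the next line. Across lines the 2 genes correlated (r = 0.607, rho = 0.48, permutation p = 1e-05 for r and 2e-05 for rho). Without QX571 r was 0.480 and rho 0.46, and without the 2 lines farthest from the median of pals-22 r was 0.463. With batch means removed rho was 0.48.

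The 780 pals-22 counts of QX571 came with other departures in that library. Among the 20 members that passed the count rule it was the highest of 85 lines at 5, pals-22, pals-25, pals-17, pals-18 and pals-38. It had 221 pals-17 counts, 220 pals-18 counts and 60 pals-38 counts, where the line medians were 91, 33 and 15. Among response genes it had the highest cul-6 (382 counts, a ubiquitin ligase scaffold), eol-1 (44 counts) and rcs-1 (685 counts), against line medians of 100, 8 and 297. Of 16 response targets, 12 were above the line median and 4 at it, with chil-27 at rank 35 and gst-33 at rank 36 of 85 lines. Some of the 12 had few counts, such as F26F2.3 with 1 against a median of 0. The share of all genes above the line median was not computed for QX571, so this tally is not read as a trait of the targets. The members and targets at which QX571 was highest stand beside the 18.2% of all 16570 genes at which it was the highest line. Its moult list summed to 316 CPM and its intestine list to 2914 CPM, the highest of all lines, and its oocyte list to 2343 CPM, the lowest. Of 181 genes (1.09%) with a line more than 5-fold above the next, QX571 was that line at 164. The part of developmental stage in its pals levels was not tested.

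In the cluster at 1376945 to 1406263 of chromosome III, members differed in opposite directions between the strains. The repressor gene pals-17 (WBGene00022346, 1390450 to 1391852) had counts of 102, 146, 125 and 102 in N2 and 75, 46, 82, 69, 59, 71 and 57 in CB4856. The strains did not overlap, and N2 was higher by 0.82 ± 0.19 on the log2 scale (edgeR adjusted p = 0.00634, and 0.0309 with the replicate block). With the first component as a covariate the difference was 0.46 and its adjusted p 0.267.

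The antagonist gene pals-16 (WBGene00022337, 1399970 to 1401401) had counts of 36, 61, 46 and 37 in N2 and 88, 49, 97, 75, 87, 85 and 52 in CB4856. N2 was lower by a log2 difference of -0.79 ± 0.25 (edgeR adjusted p = 0.0300), with 2 CB4856 libraries, batches 3 and 9, inside the N2 range. The adjusted p was 0.132 with the replicate block and between 0.0541 and 0.0786 without any of 7 libraries: CB4856 of batch 2, 4, 7 or 8, or N2 of batch 3, 8 or 9. N2 was lower in all 4 shared batches.

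The neighbouring gene pals-18 (WBGene00022353, 1403408 to 1406263) had counts of 28, 89, 80 and 34 in N2 and 26, 16, 29, 28, 19, 15 and 37 in CB4856. The N2 libraries of batches 6 and 8 exceeded all CB4856 libraries and those of batches 3 and 9 lay among them. N2 was higher by 1.21 ± 0.36 on the log2 scale (edgeR adjusted p = 0.0219), but the adjusted p was 0.121 with the replicate block, 0.103 without N2 of batch 6 and 0.0861 without N2 of batch 8. With the component as a covariate the log2 difference was 0.27, with an adjusted p of 0.784. The overlapping gene pals-19, which shares 53 exon bases with pals-18, was at 7 to 30 counts in N2, against 13 to 26 in CB4856, and was not called (adjusted p = 0.942).

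Across lines pals-17 and pals-18 were the most strongly correlated of 136 pairs of members (r = 0.785, rho = 0.77, adjusted permutation p = 0.00034 for rho). Without QX571 rho was 0.76, and with batch means removed it was 0.78. The pair of pals-19 with pals-18 had a rho of 0.48 (0.46 without QX571) and that of pals-17 with pals-19 a rho of 0.39 (0.37), and reads of pals-18 and pals-19 may be split at their shared bases. The gene pals-16 ran against pals-18, with a rho of -0.30 (adjusted p = 0.0422) and of -0.35 with batch means removed. Without QX571 rho was -0.34.

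The pairs other than pals-22 with pals-25 were computed after values had been seen, among 17 members, leaving out pals-23, pals-24 and pals-37 because their lines fell into separate groups. Of 136 pairs, 17 had an adjusted p of rho under 0.05, 14 of them positive, and 9 were called with batch means removed, all among the 17. Without QX571, 14 pairs were called, 13 of them positive, and all 14 were among the 17. The median rho was 0.19 over 11 pairs within a cluster and 0.05 over 125 pairs from different clusters, where genes 50 kb or less apart formed a cluster. Among pairs from different clusters, pals-22 was correlated with pals-18 (rho = 0.45) and with pals-17 (rho = 0.35), pals-19 with pals-32 (rho = 0.49) and pals-26 with pals-33 (rho = 0.41). Without QX571 these values were 0.43, 0.33, 0.49 and 0.42. All 4 pairs were called with batch means removed, and all 4 without QX571.

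**Figure D3:**
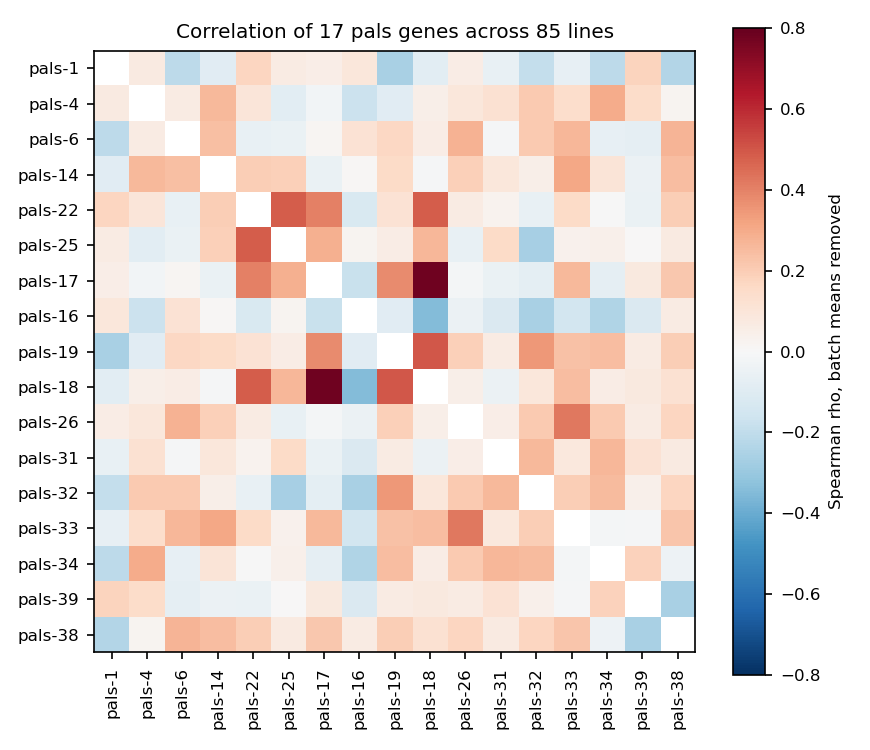
Spearman rho between 17 pals genes over 85 lines with batch means removed, in genome order, with red positive and blue negative. The darkest cell off the diagonal is pals-17 with pals-18 (rho = 0.78), and pals-22 is correlated with pals-25, pals-17 and pals-18.

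On chromosome I, pals-6 and pals-14 were lower in N2. The gene pals-6 (WBGene00007660, 13136390 to 13138544) had counts of 2, 11, 6 and 12 in N2 and 17, 13, 32, 15, 13, 23 and 24 in CB4856. The strains did not overlap, though the highest N2 and the lowest CB4856 library were 1 count apart, and the log2 difference was -1.35 ± 0.42 (edgeR adjusted p = 0.0281). The adjusted p was 0.0725 with the replicate block and 0.0507 to 0.0931 without CB4856 of batch 4 or 8 or N2 of batch 3 or 8.

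The gene pals-14 (WBGene00009061, 13139122 to 13141898) had counts of 4, 3, 1 and 12 in N2 and 13, 16, 18, 13, 11, 19 and 24 in CB4856. The N2 library of batch 9 alone reached the CB4856 range. The log2 difference was -1.71 ± 0.47 (edgeR adjusted p = 0.0156, 0.0474 with the replicate block and 0.0587 without N2 of batch 6), and it was -0.86 with an adjusted p of 0.342 with the component as a covariate. The members pals-1 and pals-4 were not called. For pals-1 the counts were 10 to 29 in N2 and 14 to 33 in CB4856 (edgeR adjusted p = 0.678), and for pals-4 they were 9 to 27 and 6 to 24 (adjusted p = 0.470).

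On chromosome V, the cluster of pals-37, pals-39 and pals-38 at 12437440 to 12446995 held a pattern among lines that neither parent showed. The gene pals-37 (WBGene00138721, 12437440 to 12441520, minus strand) had counts of 2, 2, 2 and 10 in N2 and 12, 19, 16, 18, 17, 13 and 13 in CB4856. The strains did not overlap, and N2 was lower by a log2 difference of -1.95 ± 0.43 (edgeR adjusted p = 0.00565, 0.0580 with the replicate block and 0.172 with the component as a covariate). Of its exon bases, 39.3% overlapped anr-30 on the opposite strand.

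In the lines, pals-37 had 0, 15 and 317 counts (lowest, median and highest). A group of 13 lines (15.3%) had 164 to 317 counts, QX586 had 89 and QX491 had 64, and the other 70 had at most 28. The 13 lines were at 7.09, 10.4 and 13.4 CPM (lowest, median and highest), and the highest parental library, a CB4856 library with 19 counts, was at 0.792 CPM. Their levels were thus 8.95 to 16.96-fold above the highest parental library, with a median of 13.1-fold. They occurred in batches 2, 4, 6, 7, 8 and 9, with 1, 4, 2, 2, 2 and 2 lines, and not among the 10 lines of batch 3. Of 16570 genes, 3 (0.0181%) had at least 13 lines over 5-fold above their highest parental library, by a rule written after these values were seen.

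The neighbour srh-25, a chemoreceptor gene at 12432365 to 12433817, was high in the same lines. It had 30, 50 and 129 counts (lowest, median and highest) in the 13 lines, 14 and 13 in QX586 and QX491, and 0, 1 and 11 in the other 70. Its counts were 0 to 2 in N2 and 1 to 7 in CB4856. The lines with the most pals-37 were thus the lines with the most srh-25 as a group. Across lines srh-25 was the gene most like pals-37 (rho = 0.73 with batch means removed).

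The other members of the cluster overlapped between those lines and the rest. In the 13 lines pals-39 had 0, 2 and 12 counts (lowest, median and highest), against 0, 5 and 47 in the 70. In the same 13 lines pals-38 had 9, 18 and 25 counts, against 3, 14 and 60. Outside chromosome V the gene most like pals-37 was pgp-6 on the X chromosome, a drug transporter gene chosen after values were seen, with a rho of -0.56. It had 9, 20 and 37 counts in the 13 lines, 10, 33 and 504 in the other 70, 16 to 208 in N2 and 8 to 51 in CB4856.

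**Figure D4:**
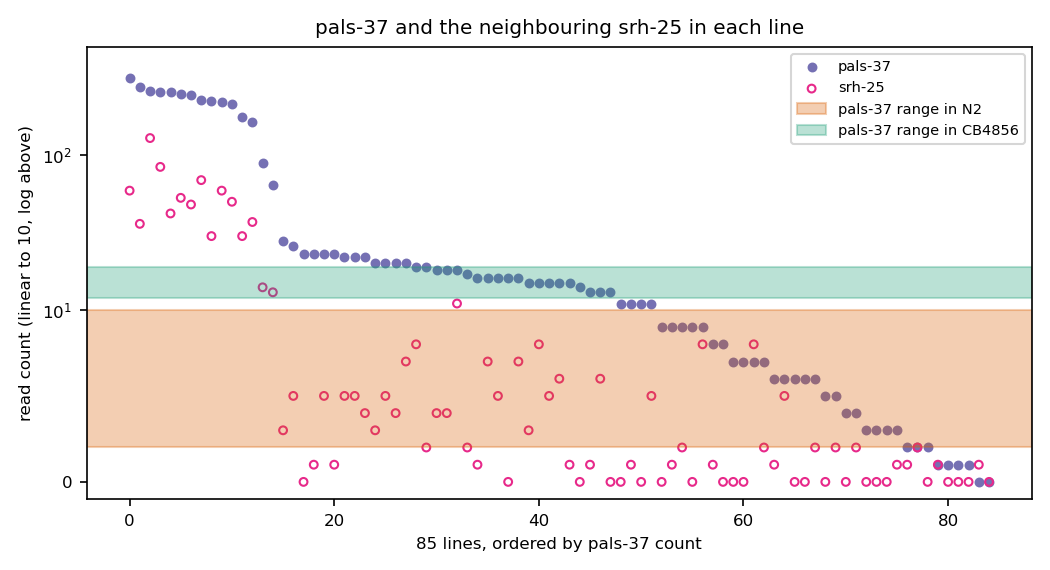
Read counts of pals-37 (filled) and of its neighbour srh-25 (open) in 85 lines ordered by pals-37 count, on an axis that is linear to 10 and logarithmic above; bands give the range of pals-37 in N2 (2 to 10) and CB4856 (12 to 19). The 13 lines at the left have 164 to 317 pals-37 counts and 30 to 129 srh-25 counts.

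The gene pals-39 (WBGene00008301, 12441663 to 12443854) had counts of 7, 6, 14 and 61 in N2 and 0, 1, 0, 5, 2, 3 and 1 in CB4856. All N2 libraries were above all CB4856 libraries, with N2 of batch 9 far above the others, but the filter on low counts kept it out of the main test. With no filter the log2 difference was 3.56 (edgeR adjusted p = 0.00606). Without N2 of batch 9 it was 2.24, with an adjusted p of 0.0203. Lines had 0, 4 and 47 counts (lowest, median and highest), and 10 were at 0. The genes most like it were cdr-6 (rho = -0.79) and clec-225 (rho = 0.79), both on chromosome V.

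The third gene of the cluster, pals-38 (WBGene00008302), had counts of 11, 16, 13 and 12 in N2 and 16, 24, 22, 15, 17, 22 and 23 in CB4856. The CB4856 libraries of batches 2 and 6 lay below the highest N2 library, and the log2 difference was -0.63 ± 0.22 (edgeR adjusted p = 0.0406). That call was lost with the replicate block (adjusted p = 0.168), with DESeq2 (0.118) and with the component as a covariate (0.191). It was also lost without CB4856 of batch 3, 4, 7, 8 or 9, or N2 of batch 3, 8 or 9, with adjusted p-values of 0.0523 to 0.108. N2 was lower in 3 of 4 shared batches.

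The remaining members on chromosomes III and V were not called between parents. The gene pals-32 had 18, 34, 34 and 20 counts in N2 and 20 to 103 in CB4856, and N2 was lower in 4 of 4 shared batches (log2 difference -0.82 ± 0.41, edgeR adjusted p = 0.140). The gene pals-33 had 1, 5, 7 and 16 counts in N2 and 7 to 34 in CB4856, also lower in 4 of 4 batches (-1.07 ± 0.58, adjusted p = 0.173), and was called without N2 of batch 9 (-1.79, adjusted p = 0.0296). Neither pals-26, with 6 to 13 counts in N2 and 3 to 19 in CB4856 (adjusted p = 0.985), nor pals-34 (0.831) was called. The gene pals-31, with 3 to 13 counts in N2 and 1 to 6 in CB4856, did not pass the filter on low counts.

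Lines were next compared with the midpoint of the parents, the mean of their fitted log levels, in all 96 libraries. The fit takes the log of the lines' mean count, so a gene expressed in part of the lines lies above this midpoint even under additive inheritance. None of 20 members was called by edgeR, and 3 had an unadjusted p under 0.05, where 6 of 16500 genes (0.0364%) were called, 0.0303% higher in the lines, and 1264 had an unadjusted p under 0.05. The median log2 difference was 0.32 over the members and 0.04 over all genes. By DESeq2, 1 member was called, pals-37 (log2 difference 2.60, adjusted p = 0.0366), among 52 genes. Without QX571, edgeR called 0 members, with 3 at an unadjusted p under 0.05, and 7 genes in all.

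The 3 members with the smallest p against the midpoint were pals-16, pals-37 and pals-34. Lines had 36, 78 and 141 counts of pals-16 (lowest, median and highest), and 21 lines exceeded every parental library (log2 difference 0.47 ± 0.16, edgeR adjusted p = 0.536). For pals-37 the log2 difference was 2.60 ± 0.90 (adjusted p = 0.562), and 31 lines exceeded every parental library. Lines had 12, 31 and 50 counts of pals-34 on chromosome V, against 15 to 38 in N2 and 17 to 37 in CB4856 (0.31 ± 0.13, adjusted p = 0.614).

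The spread among lines was widest at pals-23, pals-24, pals-37, pals-39 and pals-32. Their SDs on the log2 CPM scale were 2.99, 2.86, 1.86, 1.24 and 0.999, and the SDs within parental strains were 0.391, 0.505, 0.493, 0.955 and 0.610. A line has 1 library, so genotype, culture and batch are mixed in the first set of values. Without QX571 the line SDs were 3.01, 2.87, 1.87, 1.22 and 1.005. For pals-32, lines had 8, 39 and 275 counts (lowest, median and highest), with 13 below and 7 above every parental library.

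Batches differed among lines at 8 of 20 members, against 79.5% of 16030 genes, by edgeR's quasi-likelihood test. The members were pals-26, pals-6, pals-22, pals-33, pals-32, pals-38, pals-34 and pals-31. Each line was grown in 1 batch, so for a line genotype and batch cannot be told apart.

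The gene pals-26, on chromosome III at 4375154 to 4378907, was high in batch 9, at 0.945 ± 0.472 CPM (SD, n = 14), where the means of the other 6 batches lay between 0.324 and 0.445 CPM (edgeR adjusted p = 6.35e-08). Without batch 9 the adjusted p was 0.303. The CB4856 library of batch 9 also had the most pals-26 of its strain, 19 counts, against 3 to 11 in the others. Over all 7 batches, however, CB4856 and the mean of the lines were not clearly related at pals-26 (r = 0.483, exact permutation p = 0.299).

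Batch 4 had the highest mean of pals-6, 1.44 ± 1.21 CPM (SD, n = 11), followed by batch 9 at 1.02 ± 0.415 (SD, n = 14) and the lowest, batch 3, at 0.367 ± 0.190 (SD, n = 10; edgeR adjusted p = 1.26e-05). Batch 4 contained QX562 with 98 counts and QX563 with 63, the highest lines, against a line median of 14. The CB4856 libraries followed the same batches, with 32 counts in batch 4 and 24 in batch 9.

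For pals-33 the mean was 0.871 ± 0.604 CPM (SD, n = 14) in batch 9 and 0.266 ± 0.134 (SD, n = 7) in batch 2 (edgeR adjusted p = 0.000956, and 0.0546 without batch 9). For pals-32 the means were 1.02 CPM in batch 3 and 1.04 in batch 2, the lowest, and 2.85 in batch 9, the highest (adjusted p = 0.00647, and 0.0859 without batch 3). The batch difference of pals-22 (adjusted p = 0.000379) was lost without QX571 (0.838), without batch 7 (0.879), by DESeq2 (0.831) and with the component as a covariate (0.112). Without QX571, 8 members were again called, with pals-14 (0.0274) in place of pals-22. The call of pals-38 (0.00838) held in all of these alternatives, whereas others were lost: pals-34 without batch 4 (0.391) or 7 (0.0639), and pals-31 without batch 6 (0.0610) or 9 (0.455).

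**Figure D5:**
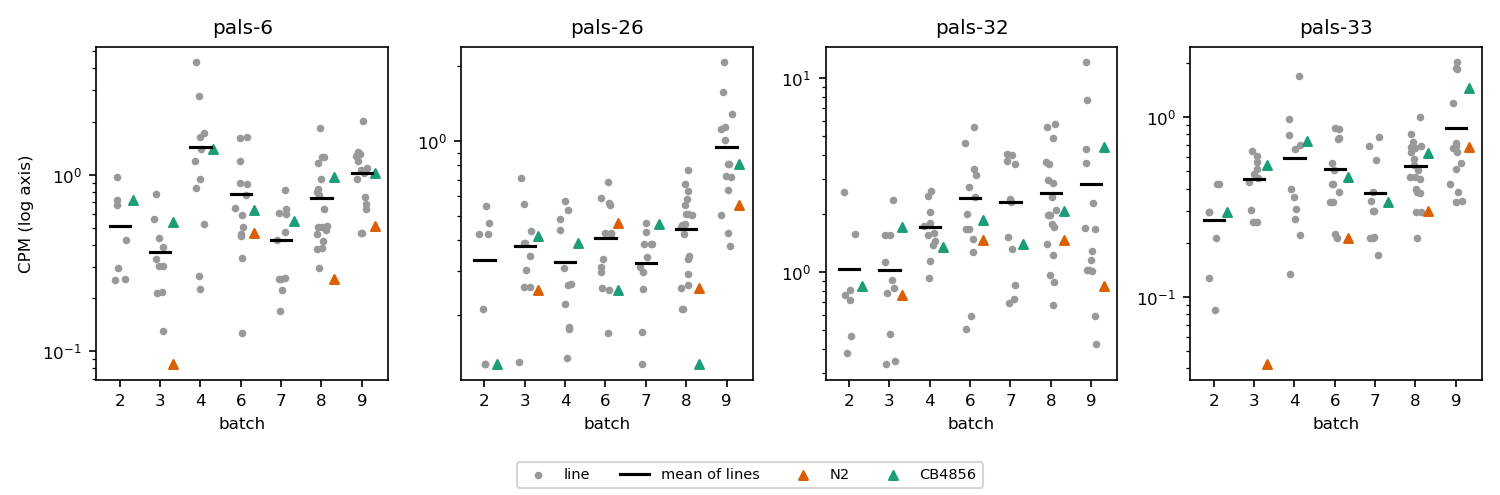
Levels of pals-6, pals-26, pals-32 and pals-33 by batch, as CPM on a log axis; grey points are lines, black bars their means and triangles the parental libraries of that batch. Batch 9 is high for pals-26 (mean 0.945 CPM) and pals-33 (0.871 CPM), and batch 4 for pals-6 (1.44 CPM).

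Since CB4856 was grown in every batch, its library was compared with the mean of the lines over the 7 batches for 18 members, leaving out pals-23 and pals-24. The largest correlations were those of pals-33 (r = 0.936, exact permutation p = 0.00357, adjusted p = 0.0643) and pals-6 (r = 0.896, exact permutation p = 0.00813, adjusted p = 0.0732). Spearman's rho was 0.821 for pals-33 (exact p = 0.0341) and 0.893 for pals-6 (exact p = 0.0123). Without the 2 batches farthest from the median r was 0.813 for pals-33 and 0.740 for pals-6. None of the 18 passed the adjusted threshold in the exact permutation test, and 2 had an unadjusted p under 0.05.

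Several batch 9 lines were high at many members at once, a description chosen after values were seen. QX491 was among the 3 highest lines at 14 of 38 members, QX503 at 11 and QX571, of batch 7, at 11. Many of these members had few counts: of the 20 that passed the count rule, QX491 was among the 3 highest at 7, QX503 at 6 and QX571 at 7. Over 16550 other genes the share was 10.7% for QX491, 11.6% for QX503 and 28.4% for QX571. In QX491, pals-26 had 49 counts, pals-14 had 37 and pals-7, which is under the detection rule, had 35, where the line medians were 10, 10 and 0. In QX503, pals-32 had 275 counts, pals-18 had 199 and pals-19 had 70, where the medians were 39, 33 and 18. These 2 lines shared high pals-31, pals-32 and pals-33 but differed at pals-18, which was at 53 in QX491. QX491 also had 34 counts of eol-1 and 42 of skr-5, a ubiquitin ligase adaptor gene, against medians of 8 and 1. Of 16 response targets in QX491, 6 were above the line median, 6 at it and 4 below it, among them rcs-1 with 163 counts against 297. In QX503, 4 of the 16 were above the line median, 6 at it and 6 below it. Another batch 9 line, QX498, had 37 counts of pals-26, next to QX491, and also 363 counts of pals-23, 45 of pals-39 and 35 of pals-4. QX498 was among the 3 highest lines at 5 of the 20 members that passed the count rule, and at 3.07% of the 16550 other genes. Of the 16 response targets, 12 were above the line median in QX498, 2 at it and 2 below it. Some of the 12 had few counts, such as fbxa-75 with 1 and sdz-6 with 3, against medians of 0. The share of all genes above the line median was not computed for these lines. Their tallies of targets are therefore not read as a trait of the targets.

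Other targets and regulators of the intracellular pathogen response, and genes of Orsay virus infection, were measured from a list of 29, of which 27 were matched. Of these, 18 were tested between parents, and 1 was higher in N2, 5 were lower and 12 were not called, with a pooled median log2 difference of -0.17. Of 7 targets tested, 1 was higher and 1 lower, with a median of -0.03. The other targets did not pass the filter on low counts and are not in these tallies. Among them, sdz-6, F26F2.1, skr-5, F26F2.3 and math-15 were at 0 in every CB4856 library. Their counts in N2 were 4 to 8, 8 to 15, 3 to 10, 1 to 5 and 1 to 16. The strains overlapped at chil-27, fbxa-75, fbxa-158 and F26F2.4. Of 7 regulators, which include repressors and activators, 3 were lower, and of 4 virus infection genes 1 was lower, sid-3. The share called, 6 of 18, was close to the 33.9% called over all genes. The gene higher in N2 was skr-4, another ubiquitin ligase adaptor gene (log2 difference 6.54 ± 0.47, edgeR adjusted p = 1.12e-06). It had 0 to 5 counts in CB4856, where lower RNA and reads that did not align cannot be told apart, as for pals-23. The lower ones were fbxa-182 (-3.13 ± 0.39, adjusted p = 0.000128), lin-15B (-0.57 ± 0.10), sid-3 (-0.41 ± 0.09), lin-35 (-0.34 ± 0.11) and drh-1 (-0.30 ± 0.10), which encodes the RIG-I-like sensor of viral RNA. Their adjusted p-values after fbxa-182 were 0.00184, 0.00403, 0.0273 and 0.0300. Among lines, batches differed at 6 of 11 response targets, 7 of 7 regulators and 4 of 4 genes of virus infection, beside 79.5% of all genes. The transcription factor gene zip-1 was not called between parents (adjusted p = 0.393).

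The likeness of genes outside the family was described for the 10 members called between parents, by the 3 largest absolute rho values of each. Of these 30 listings, 22 were on the member's own chromosome. The listings are not separate cases: pals-23 and pals-24 had the same 3 genes, and pals-17 and pals-18 shared Y82E9BR.5 and Y82E9BL.18. The share for genes outside the family was not computed, so the count is not read as a trait of the family. For pals-6 the most alike gene was eol-1, a response gene on chromosome V (rho = 0.57), and for pals-17 and pals-18 it was Y82E9BR.5 on chromosome III (rho = 0.81 and 0.78). For pals-25 it was nhr-80, a nuclear hormone receptor gene near the end of chromosome III (rho = 0.56). For pals-16 it was tpst-2, also on chromosome III (rho = 0.57). For pals-14 it was Y2H9A.6 on chromosome V (rho = 0.47), and for pals-38 ahsa-1 on its own chromosome V (rho = -0.60). These values describe 85 lines that share batches and linked parental segments.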

How the data were processed

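Read counts per gene were measured in 96 libraries. The deposited values are whole-number counts that the authors did not normalise. Per the submitters' processing notes, FastQC, STAR 2.73a, DESeq2 and the build WBcel235 were used. The annotation release is not given in the sources used here. Counts in the unstranded column were used, because the 2 strand columns were near equal, with a ratio of 0.957 to 1.04. Reads on more than 1 gene or place are left out of it, so near-identical copies are undercounted. Rows that name no gene held 7.43% of reads and were left out. Symbols and positions, counted from 1, come from Ensembl's WBcel235 annotation, which matched 46817 identifiers.

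Groups were taken from the labels' strain names. The gene tests used R 4.3.3 and edgeR 4.0.16 (filterByExpr, TMM, robust quasi-likelihood, two-sided, Benjamini-Hochberg over all genes tested, threshold 0.05), after checks on simulated data. DESeq2 1.42.0, RLE scaling, no filter, a replicate block, the first component and left-out libraries were alternatives. Batch numbers in the titles pair the parents of batches 3, 6, 8 and 9, whose deviations correlated at 0.258, 0.0831, 0.505 and 0.139. Correlations used log2 CPM (TMM, prior count 2) with 100000 two-sided permutations, or 5040 exact ones over batches. Intervals and floors cover counting error only.

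Named were all members passing the count rule, with full values for pals-5, pals-22, pals-25, those called between parents, the 5 of widest spread among lines, the 5 of smallest p between batches and the 3 against the midpoint. The alternatives without QX571, and that of pals-39 without both the filter and a library, were chosen after seeing the data. Members and lists were chosen with earlier results of these data known.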

Additional observations from a re-analysis of the deposited data

Results flagged for a closer look

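Among 22 groups of parental libraries examined for a library far from the rest, 2 were singled out. The nominal chance rate is about 1 in 20 groups. It was not checked for counts near 0, nor for groups drawn from the same libraries. At pals-23 the CB4856 library of batch 8 lay at 0.0423 CPM and the other 6 at 0, a difference of 1 read. At pals-37 the N2 library of batch 9 lay at 0.425 CPM and the other 3 at 0.0842 to 0.0855 CPM. That N2 library also lay at -36.2 on the first component, where the other N2 libraries lay at 24.3 to 56.6, and its part in the pals-37 value was not tested.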

How the results depend on the processing

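The count of pals genes called between the parents moved from 10 to 4 with the replicate block and to 4 with the first component as a covariate, and was 6 to 10 when 1 parental library was left out, 6 being without N2 of batch 8. Over all genes it moved from 5036 to 2212 with the replicate block and to 1559 with the component, and was 3227 to 6544 with 1 library left out. Against the midpoint, all genes called moved from 6 to 52 by DESeq2 and to 16 with the replicate block, and were 4 to 8 with 1 library left out; pals genes moved from 0 to 1 by DESeq2. No result reversed in any alternative. Another 87 values, over these and the other summaries and their alternatives, kept their call or stayed within 1.5 times of the reported value. For single members, a tally of part of the values had 240 that kept their direction and their side of the threshold. In it 43 lost the call and 1 gained it, and the cause was not tested. The tally does not hold every gained call given above, which were those of pals-33, pals-37 and pals-14 in single alternatives. Members with few counts are limited by depth, since 3 counts are 0.125 to 0.136 CPM.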
